A study of Mus musculus with 12 samples.

Results

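The liver response to a mammary tumour grown outside the liver was measured as the change common to WT mice and mice with a knockout (KO) of Mtdh. All 12 livers of the series entered the comparison, 6 with a tumour and 6 without, and genotype was an additive term, so that each tumour-bearing group was set against the tumour-free group of its own genotype. The mice were females matched for age, and the 4 groups of 3 came from different mice: WT without a tumour, KO without a tumour, WT bearing a Py8119 tumour and KO bearing a Py8119 tumour. Cells of the Py8119 line come from a mouse mammary tumour, and Mtdh encodes metadherin. The age, the strain, the site and duration of tumour growth, and whether the knockout was made in all cells of the animal are not stated in the labels. RNA was taken from ground whole liver, so each value is a mean over all liver cells. Mtdh itself did not move detectably with the tumour, at −0.04 ± 0.24 (limma adjusted p = 0.955) on the log2 scale. Its mean was 4892 ± 527 and 4982 ± 914 normalised reads in WT livers without and with a tumour, and 549 ± 100.4 and 589 ± 412 in KO livers (SD, n = 3).

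The liver answers inflammatory cytokines, above all interleukin-6 and its relatives, with the acute phase response: receptors that share the gp130 subunit (encoded by Il6st) activate the transcription factor STAT3, and hepatocytes raise the output of fibrinogen, inhibitors of proteases and other plasma proteins. Secretion on that scale runs through the endoplasmic reticulum, whose chaperones are raised by the unfolded protein response. In the fasting liver the nuclear receptor PPARα raises genes of fatty acid oxidation, and growth hormone sets many of the cytochrome P450, sulfotransferase and urinary protein genes that differ between male and female mice.

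The tumour effect covered few genes at the chosen threshold, and several belonged to known groups: acute phase and cytokine signalling genes and genes of matrix-producing cells were higher with a tumour, and PPARα targets were lower. Of 22557 genes in the table, 17380 had a value of at least 10 normalised reads in at least 3 libraries and were tested with limma on log2(value + 1). Each value is a read number scaled by its library's size factor, and fold changes (tumour minus none, ± SE of the fit, 6 livers against 6) are on that log2 scale, which understates changes of low genes. With Benjamini-Hochberg adjusted p under 0.05, 79 genes were higher and 58 lower with a tumour, 137 in all or 0.788% of those tested (0.455% higher and 0.334% lower). The same values can also be described by whether the 6 tumour libraries and the 6 tumour-free libraries overlap, which is not separate support for a call. No overlap was seen in 288 genes, 1.66% of those tested, and 95 of the 137 were among them. The largest increases and decreases named below were picked only from called genes without overlap, so that trait was set by the rule. Protein-coding genes made up 133 of the 137, 51 were on at least 1 of 48 gene lists and 86 on none. Before adjustment 2632 genes had a p under 0.05, 15.1% of those tested. The median over all tested genes was −0.04.

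The count rests on few animals. It was 41, 33 and 77 without WT_no_tumor replicates 1, 2 and 3, 36 without KO_no_tumor replicate 1, 45, 34 and 67 without WT_tumor replicates 1, 2 and 3, 44 without KO_tumor replicate 3, and 256 without KO_tumor replicate 2. Rescaling each library to the same total gave 107 higher and 40 lower, and quantile normalisation 102 higher and 42 lower. A pair of libraries stood apart: KO_tumor replicate 1 had an estimated 12700000 reads, against 25700000 to 43000000 in the other libraries, and KO_no_tumor replicate 3 had 83.7% of its signal in protein-coding genes, against 92.2% to 95.7%. Without both, 117 genes were higher and 55 lower, and 107 of the 137 remained. It also rests on how limma sets the variance of each gene. With 1 prior variance for all genes in place of a trend of variance with level, an alternative chosen after seeing the data, 10 genes were higher and 7 lower, 16 of them among the 137. Of the called list members, 0 of 9 acute phase proteins, 0 of 7 genes of IL-6 and IL-1 signalling, 0 of 3 of ER stress, 2 of 7 PPARα targets (Acot4 and Cyp4a10), 1 of 3 sex-biased genes (Cyp17a1) and 4 of 5 genes of matrix-producing cells (Dcn, Pdgfra, Pdgfrb and Timp1) passed there. Timp1 had met the filter on low values through tumour libraries alone. There were 23 other alternatives, which were 10 other settings, 12 fits that leave out 1 library each, and the fit without that pair. The direction of none of the 137 reversed in them. These fits reuse most or all of the livers that chose the 137, so a reversal was unlikely from the start.

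The response was read in each genotype on its own, since an averaged effect can come from 1 genotype. No gene passed for a difference between the genotypes' tumour effects by limma's interaction term (0% called), 816 genes had an unadjusted interaction p under 0.05 (4.70% of those tested), and 1 gene passed without WT_tumor replicate 2, 1 with library weights and 1 with 1 prior variance for all genes. Among the 137 genes, all moved in the same direction in both genotypes, and 121 had an unadjusted p under 0.05 in both. The additive fit, made on the same livers, favours each of these by its construction, so neither is separate support. Of all 17380 tested genes, 329 had the same direction and an unadjusted p under 0.05 in both. The unadjusted interaction p from limma was under 0.05 in 27 of the 137, where it was in 4.70% of all tested genes. Those 27 genes may differ in size of change between the genotypes, though none passed after adjustment. The 6 WT livers alone gave 136 called genes (0.783%), 94 higher (0.541%) and 42 lower (0.242%), and the 6 KO livers alone gave 1 (0.00575%), Cyp4a10; with 1 prior variance for all genes they gave 20 and 0. These 2 fits share no library, so the genes called in WT livers can be read in KO livers. Of the 136, 119 or 87.5% had the same direction in KO livers, where 58.9% of all tested genes had the same direction in both. In KO livers, where 8.73% of all genes had an unadjusted p under 0.05, 52 of them also had an unadjusted p under 0.05 in that direction and 0 in the opposite one. Their median change was 2.22 in WT livers, in which they were chosen, and 0.78 in KO livers. Of the 137 genes, 64 were called in WT alone and 73 in neither genotype alone, and the WT change was the larger in 105.

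**Figure D1:**
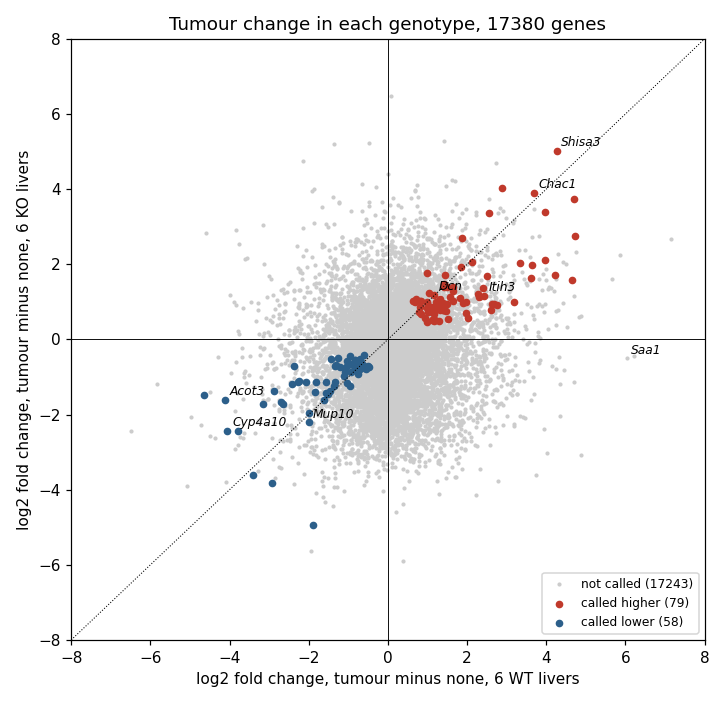
Tumour change in 6 WT livers (horizontal axis) against that in 6 KO livers (vertical axis), each as a log2 fold change of tumour minus none for 17380 genes. Red and blue points are the 79 genes called higher and the 58 called lower in the additive fit, all in the upper right or lower left quadrant, and the dotted line marks equal change. Saa1 lies at the right, with 6.03 in WT and −0.50 in KO livers.

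Cytokine receptors and their signalling genes were among the increases. Of 31 tested genes of IL-6 and IL-1 signalling, 7 rose and 0 fell, and 26 were above 0, with a median of 0.35. The median was 0.69 in WT and 0.20 in KO livers, and the number called lay between 1 and 8 when libraries were left out in turn. Osmr (ENSMUSG00000022146, chromosome 15, 6843058 to 6904450, mm39), the receptor of the gp130 cytokine oncostatin M, was 168, 256 and 124 in WT and 137, 221 and 288 in KO livers without a tumour, and 1011, 779.9 and 839 in WT and 432, 423 and 507 in KO livers with one. Every tumour library lay above every tumour-free one, and the rise of 1.72 ± 0.27 (limma adjusted p = 0.0108) kept its call in all 23 alternatives. Il6st, which encodes gp130 itself, ran from 8485 to 10271 without a tumour (median 9218) and from 11606 to 20631 with one (median 15030). Its rise was small, 0.72 ± 0.14 (limma adjusted p = 0.0283), but the 2 sets of livers did not overlap. Tnfrsf1a, a receptor of tumour necrosis factor, rose by 1.14 ± 0.21 (limma adjusted p = 0.0243), and Il6ra, the receptor subunit that binds IL-6, was at 0.01 ± 0.27 (limma adjusted p = 0.987).

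Stat3, Socs3 and Steap4 rose as well, while the acute phase genes Saa1 and Hamp, described below, did not pass. The part of STAT3 in these changes was not tested. Stat3 ran from 1569.5 to 2807 without a tumour (median 2237) and from 2889 to 5163 with one (median 3990.1), a rise of 0.83 ± 0.17 (limma adjusted p = 0.0381). Socs3, the feedback inhibitor of gp130 signalling, was 75.6, 51.5 and 63.4 in WT and 116, 134 and 210.4 in KO livers without a tumour, and 364, 484 and 394 in WT and 182, 298 and 430.1 in KO livers with one. The lowest tumour library, KO_tumor replicate 1, lay below KO_no_tumor replicate 3, so the sets overlapped, and the rise was 1.82 ± 0.35 (limma adjusted p = 0.029). Steap4, a metalloreductase gene that responds to inflammation, was 2256, 2498 and 2113 in WT and 2126, 2471 and 2927 in KO livers without a tumour, and 10144, 8077 and 8682 in WT and 3262, 3454 and 5872 in KO livers with one. It did not overlap between the 2 sets and rose by 1.33 ± 0.22 (limma adjusted p = 0.0145), with 1.97 in WT and 0.70 in KO livers and an unadjusted interaction p of 0.00124. The calls of Il6st, Tnfrsf1a, Stat3, Socs3 and Steap4 ended in 9, 5, 8, 8 and 2 of the 23 alternatives. Steap4 lost its call without WT_no_tumor replicate 2 and without WT_tumor replicate 2, with adjusted p at most 0.0544. Cxcl1, a chemokine that draws neutrophils, ran from 14.3 to 149 without a tumour (median 45) and from 74.1 to 1210.2 with one (median 729) and rose by 3.04 ± 0.59 (limma adjusted p = 0.0292), with its call ending in 9 of the 23. It was the 1 called gene among 15 tested chemokines and growth factors of myeloid cells, 9 of them above 0 and 6 below. The list's median of 0.40 turned to −0.15 without WT_tumor replicate 2. Its summed level had a median of 14300 without a tumour and 11810 with one.

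Several of these promoters hold the letters that STAT3, C/EBP or NF-κB are known to read. The stretches below come from RefSeq's gene start windows (build GRCm38.p6, not the mm39 of the deposited table) and are written on the strand of the gene, upstream of its start, with the matched motif in capitals; they are shown because their genes rose.
Fga, chr3:83025903-83025953, + strand: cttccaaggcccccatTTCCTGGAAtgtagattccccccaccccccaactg
Steap4, chr5:7960330-7960390, + strand: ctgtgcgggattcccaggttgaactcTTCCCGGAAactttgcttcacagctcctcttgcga
Serpina11, chr12:103989974-103990034, - strand: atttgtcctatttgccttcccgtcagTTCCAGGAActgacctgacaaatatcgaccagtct
Orm2, chr4:63362303-63362362, + strand: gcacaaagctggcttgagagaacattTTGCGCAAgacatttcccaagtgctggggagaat
Cxcl1, chr5:90891149-90891209, + strand: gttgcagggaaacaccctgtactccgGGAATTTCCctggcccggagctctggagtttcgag
The first 3 hold the STAT palindrome TTCCNGGAA, which is in 300 of 32851 windows (0.913%). For this and the other motifs, only the 250 bases before each start were searched, on both strands. Orm2 holds the C/EBP palindrome TTGCGCAA (0.164% of windows), and Cxcl1 the NF-κB letters GGAATTTCC (0.286% of windows). These matches describe letters and not binding. The table had a window for 58 of the 79 higher genes and 41 of the 58 lower ones, under the 80% needed for a comparison of shares, so none was made. Of all tested genes, 11603 had a window, and 149 of these held the STAT palindrome. Among the windows present, TTCCNGGAA was in 3 genes called higher, the 3 shown, and in 0 called lower. In all, 7 motifs were searched. A looser STAT pattern was in 10 genes called higher, 4 called lower and 868 of the 11603. The PPAR direct repeat, in 0.0335% of all windows, was in 0 called higher and 0 called lower, also with 1 mismatch allowed. A composite motif of ATF4 and C/EBP had 0 exact matches in either set. Serpina11, a serine protease inhibitor family gene, and Orm2 were named after their values were seen, and their calls ended in 9 and 9 of the 23 alternatives.

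Acute phase plasma proteins were the list with the most called increases. Of 27 tested members, 9 rose and 0 fell, 24 were above 0 and the median was 1.34, against 46.8% of genes above 0 and a median of −0.04 over all tested genes. The list's median was 1.56 in WT and 0.81 in KO livers. It stayed between 1.16 and 1.48 when libraries were left out in turn, with 3 to 18 members called. Itih3 (ENSMUSG00000006522, chromosome 14, 30630529 to 30645717), a heavy chain of the inter-alpha-trypsin inhibitors that bind hyaluronan, was 5654, 4767 and 6738 in WT and 6769, 6888 and 8058 in KO livers without a tumour, and 35801, 23340 and 34092 in WT and 19812, 10015 and 21444 in KO livers with one. It rose by 1.80 ± 0.25 (limma adjusted p = 0.00614), with no overlap and with its call kept in all 23 alternatives. Itih4, another heavy chain, was 19562, 20719 and 18411 in WT and 15740, 22396 and 28100 in KO livers without a tumour, and 52408, 43884 and 40848 in WT and 47941, 31673 and 52658 in KO livers with one, a rise of 1.11 ± 0.18 (limma adjusted p = 0.0143) that was called in neither genotype alone.

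The fibrinogen genes, which encode the 3 chains of the clotting protein, all rose. Fga (ENSMUSG00000028001, chromosome 3, 82933383 to 82940934), whose upstream stretch is printed above, was 28551, 25886 and 33605 in WT and 26196, 44885 and 46321 in KO livers without a tumour, and 79418, 92088 and 87180 in WT and 114360, 59144 and 83793 in KO livers with one. The rise was 1.34 ± 0.22 (limma adjusted p = 0.0132) with no overlap, and Fgb rose by 1.09 ± 0.21 (limma adjusted p = 0.0281). Fgg, named after its values were seen, rose by 1.10 ± 0.22 (limma adjusted p = 0.031). Fga kept its call in all 23 alternatives, and the calls of Fgb and Fgg ended in 8 and 9. In KO livers the changes of the 3 genes were 1.13, 0.79 and 0.79, and in WT livers 1.56, 1.40 and 1.41. Lrg1, a leucine-rich plasma glycoprotein gene, was 2177, 1271 and 3016 in WT and 2962, 2321 and 3641 in KO livers without a tumour, and 26497, 10760 and 22005 in WT and 5925, 3091 and 10544 in KO livers with one. KO_tumor replicate 2 lay within the tumour-free range, and the rise was 2.08 ± 0.41 (limma adjusted p = 0.032), with 3.18 in WT and 0.98 in KO livers (unadjusted interaction p 0.00277). Its call ended in 9 of the 23 alternatives.

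Saa1, the serum amyloid gene that leads many acute phase responses, did not pass in the additive fit. It was measured at 11.3, 12.6 and 34.1 in WT and 54.8, 56.4 and 439 in KO livers without a tumour, and 3981, 359 and 1147 in WT and 19.7, 116 and 205 in KO livers with one. In KO livers the tumour and tumour-free values overlapped, and the additive estimate was 2.77 ± 1.10 (limma adjusted p = 0.246), made of 6.03 in WT and −0.50 in KO. The unadjusted interaction p from limma was 0.000458. It was called in 2 of the 23 alternatives, with library weights and without both KO_tumor replicate 1 and KO_no_tumor replicate 3, at 4.20 (limma adjusted p = 0.0212) in the latter. The iron hormone gene Hamp, another member of the list, was at −1.42 ± 1.12 (limma adjusted p = 0.574), with −3.32 in WT and 0.49 in KO. Of 14 tested genes of proteins that usually fall in an acute phase response, 0 passed in either direction and 13 were above 0, with a median of 0.31. Albumin (Alb) was at 0.39 ± 0.82 (limma adjusted p = 0.861) in the gene fit. That SE is not the spread between the livers: the residual SD of Alb was 0.207, and the variance trend, at its end of highest level, gave an SD of 2.24. With 1 prior variance for all genes Alb was at 0.39 ± 0.15 (limma adjusted p = 0.332).

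Few complement and coagulation genes passed. Of 26 complement genes 2 rose, C6 of the membrane attack complex (1.06 ± 0.22, limma adjusted p = 0.0408) and Cfi, the protease that inactivates C3b and C4b (0.76 ± 0.16, limma adjusted p = 0.0374); 25 were above 0 and the median was 0.55. Of 25 genes of coagulation and fibrinolysis 1 rose, Serpinf2, the inhibitor of plasmin (0.89 ± 0.20, limma adjusted p = 0.0483), with 19 above 0. The calls of C6, Cfi and Serpinf2 ended in 9, 9 and 14 of the 23 alternatives.

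**Figure D2:**
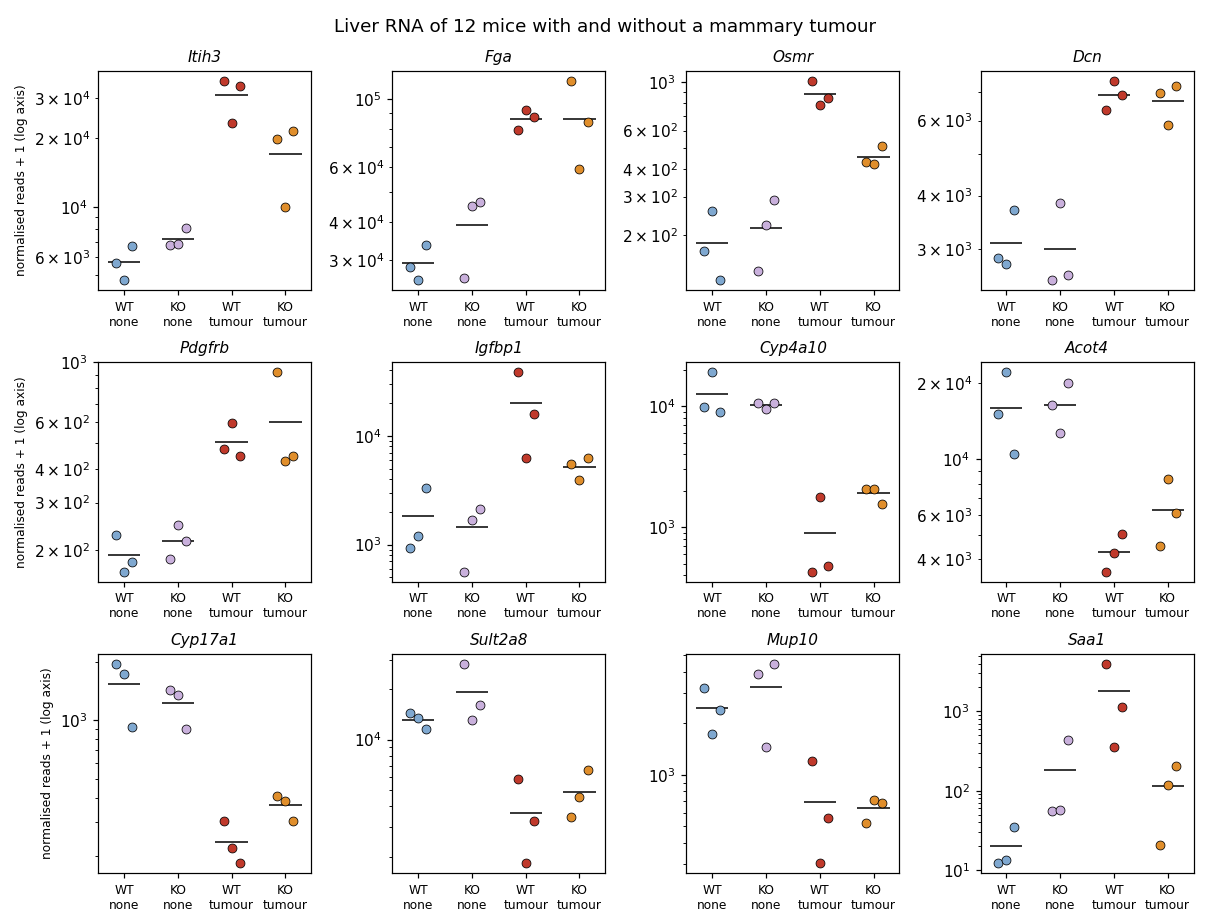
Normalised reads plus 1 (vertical axes, log scale) of 12 genes in each of 12 livers, 3 per group, with the group mean as a bar. Itih3, Osmr, Igfbp1 and Dcn lie above all tumour-free livers in both genotypes and Cyp4a10, Acot4, Cyp17a1, Sult2a8 and Mup10 below them, while Saa1 overlaps in KO livers.

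A few genes of the endoplasmic reticulum rose. Of 29 genes of ER stress and the unfolded protein response, 3 rose and 0 fell, with 23 above 0 and a median of 0.44 (0.66 in WT and 0.17 in KO livers). The number called was 0 to 5 when libraries were left out in turn. Hspa5 (ENSMUSG00000026864, chromosome 2, 34661982 to 34667559), the main chaperone of the compartment, was 7217, 5552 and 8997 in WT and 5799, 8716 and 7052 in KO livers without a tumour, and 16554, 17111 and 14421 in WT and 13690, 10254 and 10291 in KO livers with one. No tumour value fell within the tumour-free range, and the rise was 0.92 ± 0.17 (limma adjusted p = 0.0229), called in neither genotype alone. Manf, a secreted ER stress factor, rose by 1.20 ± 0.23 (limma adjusted p = 0.0285). Chac1, a glutathione-degrading enzyme induced through ATF4, ran from 1.32 to 54.7 without a tumour (median 14.5) and from 33.2 to 339.8 with one (median 158) and rose by 3.80 ± 0.77 (limma adjusted p = 0.0364). The calls of Hspa5, Manf and Chac1 ended in 5, 7 and 11 of the 23 alternatives. Xbp1, a transcription factor of the response, was at 0.53 ± 0.18 (limma adjusted p = 0.169), with 0.99 in WT and 0.08 in KO. The Hspa5 promoter held the ER stress element, CCAAT and then CCACG after 9 other bases, which is in 0.113% of windows; it is shown in RefSeq's GRCm38.p6 with the element and the bases between its ends in capitals.
Hspa5, chr2:34772020-34772048, + strand: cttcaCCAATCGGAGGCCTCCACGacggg
The list of translocation, N-glycosylation and export genes had 0 of 37 called and a median of 0.19.

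PPARα targets were the list with the most called decreases. Of 23 tested, 7 fell and 0 rose, 21 were below 0 and the median was −1.17. It was −1.41 in WT and −0.80 in KO livers, and between −1.31 and −0.99 when libraries were left out in turn, with 4 to 10 members called. Cyp4a10 (ENSMUSG00000066072, chromosome 4, 115375461 to 115390846), a fatty acid omega-hydroxylase, was 9815, 19053 and 8923 in WT and 10625, 9404 and 10546 in KO livers without a tumour, and 429, 1770.1 and 477 in WT and 2081, 2085 and 1546 in KO livers with one. The highest tumour liver was at 2085 and the lowest tumour-free liver at 8923, and the change was −3.24 ± 0.36 (limma adjusted p = 0.0017). It was the gene called in WT livers alone and in KO livers alone, at −4.06 in WT and −2.43 in KO. Its neighbour in the family Cyp4a14 was 17374, 38179 and 17340 in WT and 21335, 21491 and 22699 in KO livers without a tumour, and 1148, 7539 and 1834 in WT and 4261, 11301 and 6127 in KO livers with one, a change of −2.44 ± 0.42 (limma adjusted p = 0.0171) whose call ended without WT_no_tumor replicate 2 (adjusted p = 0.0544). Cyp4a genes are near-identical copies, and reads could be split between them.

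The acyl-CoA thioesterase genes Acot4, Acot3 and Acot1, whose products free fatty acids from coenzyme A, fell as well. Acot4 (ENSMUSG00000052392, chromosome 12, 84085153 to 84095375), a peroxisomal member, was 15099, 22115 and 10456 in WT and 16372, 12752 and 20039 in KO livers without a tumour, and 3579, 4224 and 5029 in WT and 4504, 8304 and 6089 in KO livers with one. Its change was −1.62 ± 0.21 (limma adjusted p = 0.00336) with no overlap and with the call kept in all 23 alternatives. Acot3 was 8858, 11558 and 4877 in WT and 6188, 8297 and 14228 in KO livers without a tumour, and 249, 859 and 448 in WT and 1902, 4288 and 3154 in KO livers with one, a change of −2.86 ± 0.45 (limma adjusted p = 0.0107) with −4.11 in WT and −1.61 in KO livers (unadjusted interaction p 0.00143). Acot1 was 648, 890.4 and 725 in WT and 346, 713 and 658 in KO livers without a tumour, and 25.1, 73.7 and 12.8 in WT and 417, 175 and 100.3 in KO livers with one. KO_tumor replicate 1 lay above the lowest tumour-free value, the change was −3.06 ± 0.58 (limma adjusted p = 0.026), and the call ended in 6 of the 23 alternatives. Aldh3a2, the fatty aldehyde dehydrogenase, changed by −1.61 ± 0.25 (limma adjusted p = 0.0108). The remaining called member was Vnn1, a pantetheinase, at −1.48 ± 0.27 (limma adjusted p = 0.0247), named after its values were seen, and its call ended in 6 of the 23.

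The receptor itself and most mitochondrial enzymes did not pass the test. Ppara was at −0.52 ± 0.22 (limma adjusted p = 0.293) and its partner Rxra at 0.04 ± 0.17 (limma adjusted p = 0.94). Cpt1a, of the carnitine shuttle into mitochondria, was at −0.55 ± 0.25 (limma adjusted p = 0.311), and Fgf21, a fasting hormone gene on the PPARα list, at 1.88 ± 0.76 (limma adjusted p = 0.259). Of 28 genes of fatty acid oxidation and ketogenesis, 1 fell, Decr1 of unsaturated fatty acid breakdown (−0.89 ± 0.18, limma adjusted p = 0.0381; call ended in 13 of the 23 alternatives), and 22 were below 0 with a median of −0.24. Acadsb, which oxidises branched short acyl-CoA, was 4723, 6279.8 and 4485 in WT and 5657, 4454 and 4613 in KO livers without a tumour, and 3202, 3366 and 3689 in WT and 2762, 2896 and 2899 in KO livers with one, a change of −0.68 ± 0.12 (limma adjusted p = 0.0241) with no overlap and called in neither genotype alone. Its call ended in 5 of the 23 alternatives.

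Few sex-biased and growth hormone dependent genes passed, in both directions. Of 32 tested, 2 fell and 1 rose, 24 were below 0 and the median was −0.46 (−0.51 in WT and −0.32 in KO livers). Cyp17a1 (ENSMUSG00000003555, chromosome 19, 46655604 to 46661611), a steroid hydroxylase and lyase, was 1947, 1719.8 and 918 in WT and 1423, 1352 and 896 in KO livers without a tumour, and 303, 220.3 and 184 in WT and 407, 382 and 303 in KO livers with one. All 6 tumour livers lay below all 6 tumour-free ones, and the change of −2.19 ± 0.24 (limma adjusted p = 0.0017) had the smallest p of all genes. Mup10, a major urinary protein, was 3228, 1731 and 2399 in WT and 3892, 1457 and 4444 in KO livers without a tumour, and 1204, 304 and 561 in WT and 520.0, 715 and 679.7 in KO livers with one, a change of −2.11 ± 0.32 (limma adjusted p = 0.00891) with −2.01 in WT and −2.21 in KO and called in neither genotype alone; Mup genes are near-identical copies whose reads could be split. Igfbp1, a binding protein of insulin-like growth factors that is raised in fasting, moved the other way. It was 919, 1200.5 and 3339 in WT and 563, 1668 and 2119 in KO livers without a tumour, and 38387, 6260.4 and 15710 in WT and 5508, 3893 and 6249.9 in KO livers with one, a rise of 2.68 ± 0.46 (limma adjusted p = 0.0163) whose call ended in 3 of the 23 alternatives, robust eBayes and the fits without WT_no_tumor replicate 2 and without KO_no_tumor replicate 1 (adjusted p at most 0.0625). Igf1 itself was at −0.76 ± 0.21 (limma adjusted p = 0.108).

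Other enzymes of the hepatocyte among the largest decreases were Sult2a8 and Cyp2c69. Sult2a8 (ENSMUSG00000030378, chromosome 7, 14144611 to 14180694), a sulfotransferase, was 14484, 13477 and 11540 in WT and 28345, 13161 and 16024 in KO livers without a tumour, and 5813, 1836 and 3256 in WT and 3455, 4524 and 6556 in KO livers with one. The highest tumour value was below every tumour-free value, the change was −1.98 ± 0.26 (limma adjusted p = 0.00348), with −2.01 in WT and −1.96 in KO. Cyp2c69 ran from 8812 to 19755 without a tumour (median 15154) and from 1483 to 7785 with one (median 3019), a change of −2.12 ± 0.32 (limma adjusted p = 0.00887). The 3 remaining genes of that group were Gas1, a membrane protein of growth arrest (−1.70 ± 0.31, limma adjusted p = 0.023), Smad9, a transducer of BMP signals (−1.67 ± 0.32, limma adjusted p = 0.0262), and Rab30, a small GTPase of the Golgi (−1.62 ± 0.33, limma adjusted p = 0.0377). Their calls ended in 5, 6 and 11 of the 23 alternatives.

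Transport and signalling genes were among the 73 called in neither genotype alone. Slc16a10, a transporter of aromatic amino acids and thyroid hormones, was 6289, 5124 and 4239 in WT and 7137, 4802 and 6725 in KO livers without a tumour, and 3049, 2239 and 2369 in WT and 2306, 3055 and 2869.6 in KO livers with one. The sets did not overlap and the change was −1.10 ± 0.15 (limma adjusted p = 0.00484), kept in all 23 alternatives. Plekha8, a glycolipid transfer protein of the Golgi, changed by −1.04 ± 0.17 (limma adjusted p = 0.0117), and Rapgef4, the cAMP sensor EPAC2, by −0.84 ± 0.14 (limma adjusted p = 0.0132), both with calls kept in all 23. Homer2, a scaffold protein, changed by −0.88 ± 0.16 (limma adjusted p = 0.0229), and its call ended in 6 of the 23. In WT and KO livers the changes were −1.03 and −1.17 for Slc16a10, −1.10 and −0.99 for Plekha8, and −0.75 and −0.93 for Rapgef4.

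Lipid synthesis lists held no called gene. Of 22 genes of cholesterol synthesis 18 were above 0 with a median of 0.39, and of 21 genes of lipogenesis 13 were below 0 with a median of −0.29, at −0.57 in WT and 0.19 in KO livers. Fasn, the fatty acid synthase, was at 0.31 ± 0.49 (limma adjusted p = 0.795) and Srebf1, a transcription factor of lipid synthesis, at 0.35 ± 0.28 (limma adjusted p = 0.566). Single members fell in 3 lists: Akr1d1, a bile acid synthesis enzyme (−0.61 ± 0.13, limma adjusted p = 0.0381), Fmo1, a drug-metabolising monooxygenase (−0.70 ± 0.15, limma adjusted p = 0.0381), and Lipc, hepatic lipase (−0.996 ± 0.19, limma adjusted p = 0.0262). Their calls ended in 14, 14 and 8 of the 23 alternatives. Cyp7a1, which starts the classic route of bile acid synthesis, was at −0.38 ± 0.33 (limma adjusted p = 0.614), and the hepatocyte regulator Hnf4a at 0.02 ± 0.16 (limma adjusted p = 0.978). Hnf4a does not stand for its list. Of 26 tested hepatocyte transcription factors, 0 were called and 16 were below 0, with a median of −0.13. An unadjusted limma p under 0.05 was seen in 11 of them, and in 15.1% of all tested genes. Their summed level was 84820 to 101400 without a tumour and 63040 to 79170 with one, without overlap. Retsat, retinol saturase, changed by −1.54 ± 0.32 (limma adjusted p = 0.0407), and its call ended in 12 of the 23 alternatives.

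**Figure D3:**
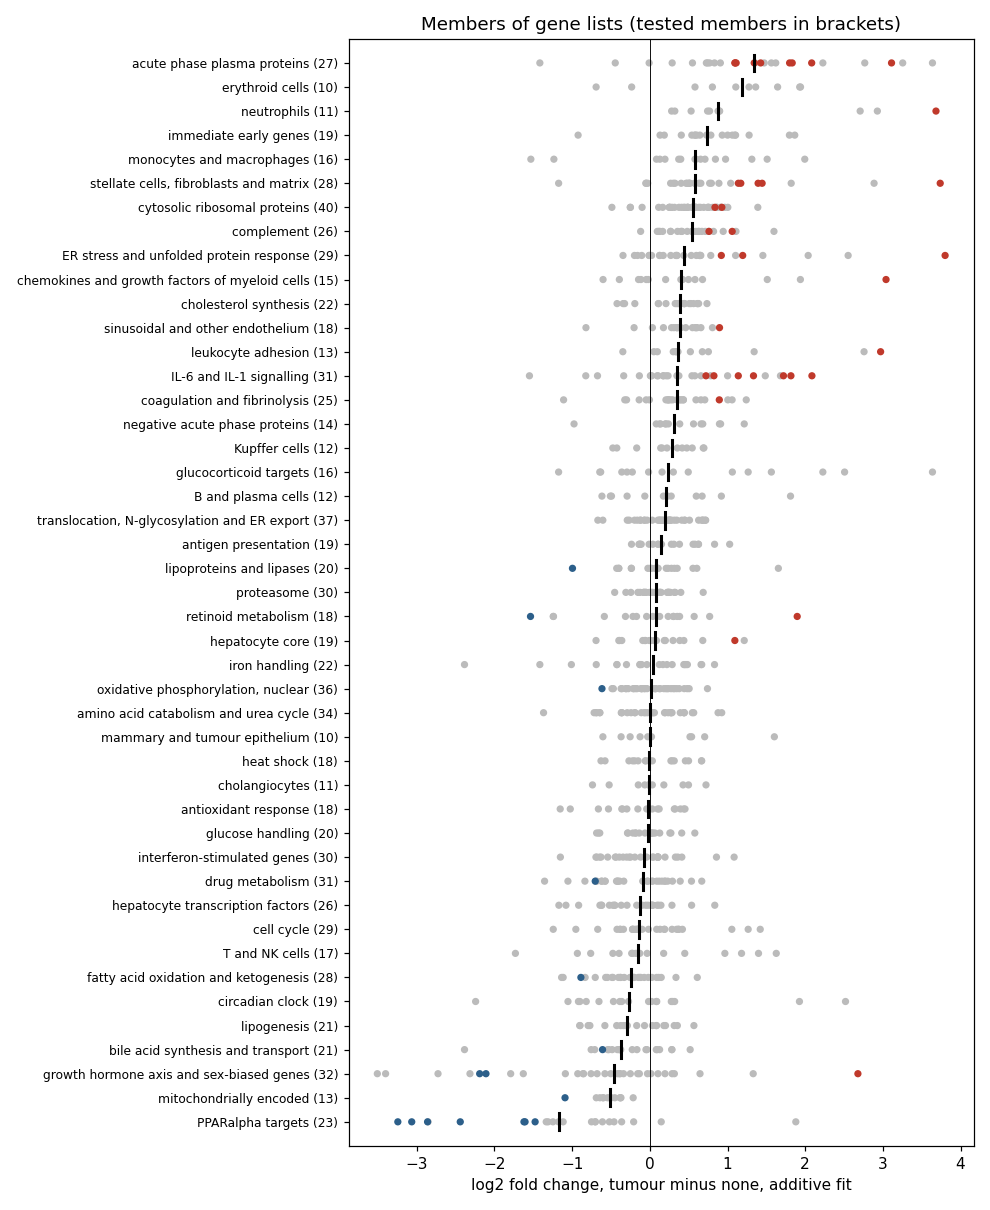
Log2 fold changes (tumour minus none, additive fit, horizontal axis) of the tested members of each gene list with at least 5 of them, ordered by the median, which is the black bar. Red and blue points are called genes and grey points are not called; acute phase proteins lie at the top with a median of 1.34 and PPARα targets at the bottom with a median of −1.17.

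Genes of matrix-producing cells formed another group of increases. Of 28 genes that mark stellate cells, fibroblasts and the matrix they make, 5 rose and 0 fell, 24 were above 0 and the median was 0.58 (0.80 in WT and 0.38 in KO livers). In whole liver more cells of a type and more RNA per cell cannot be told apart. Dcn (ENSMUSG00000019929, chromosome 10, 97315471 to 97354005), which encodes the matrix proteoglycan decorin, was 2845, 2764 and 3693 in WT and 2531, 3846 and 2606 in KO livers without a tumour, and 6358, 7442 and 6882 in WT and 6966, 5856 and 7228 in KO livers with one. Its rise of 1.17 ± 0.14 (limma adjusted p = 0.00204) had the smallest p among increases, with 1.16 in WT and 1.18 in KO. Lum, which encodes the related proteoglycan lumican, was 314, 440.5 and 224 in WT and 264, 354 and 224 in KO livers without a tumour, and 1008, 732 and 952 in WT and 1033, 498 and 740.1 in KO livers with one, a rise of 1.45 ± 0.22 (limma adjusted p = 0.00948). The platelet-derived growth factor receptors, which mark these cells, rose as well: Pdgfra by 1.14 ± 0.16 (limma adjusted p = 0.00614) and Pdgfrb by 1.39 ± 0.22 (limma adjusted p = 0.0107). None of these 4 genes overlapped between the sets, and each kept its call in all 23 alternatives. The remaining member, Timp1, an inhibitor of matrix proteases named after its values were seen, was at 19.4, 43.2 and 19.9 in WT and 17.3, 2.6 and 6.92 in KO livers with a tumour and at most 0.75 without one, and its call ended in 13 of the 23. It entered the test only through the tumour livers where it was high, so its call is not support for the list. The fibrillar collagen gene Col3a1, also named after its values were seen, was at 0.63 ± 0.28 (limma adjusted p = 0.304), with 1.502 in WT and −0.23 in KO. Summed over the 28 markers, the level was 38870 to 63890 without a tumour and 59050 to 84760 with one.

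Of 18 listed markers of sinusoidal and other endothelium, 1 rose and 16 were above 0, with a median of 0.38 (0.39 in WT and 0.39 in KO livers). Their summed level was 12270 to 17610 without a tumour and 18620 to 25960 with one, without overlap. Sums of other lists did not overlap either. They were higher with a tumour for IL-6 and IL-1 signalling and immediate early genes. They were lower for PPARα targets, sex-biased and growth hormone dependent genes, and hepatocyte transcription factors. Clec4g, a lectin of sinusoidal endothelium, was 526, 534 and 476 in WT and 429, 591 and 455 in KO livers without a tumour, and 878, 881 and 766 in WT and 1127, 829 and 1169 in KO livers with one, a rise of 0.90 ± 0.15 (limma adjusted p = 0.0171). Plvap, which is not on that list and forms the diaphragms of endothelial pores, was 682, 334 and 695 in WT and 499, 653 and 712 in KO livers without a tumour, and 1379, 1486 and 1394 in WT and 1078, 1031 and 1526 in KO livers with one, a rise of 1.17 ± 0.20 (limma adjusted p = 0.0163). Both were called in neither genotype alone, and both calls ended without KO_no_tumor replicate 1, WT_tumor replicate 2 or KO_tumor replicate 3 (adjusted p at most 0.0596 and 0.0589). Selp, the P-selectin of endothelium and platelets, rose by 2.97 ± 0.63 (limma adjusted p = 0.0415), and its call ended in 11 of the 23 alternatives. The summed level of 10 markers of megakaryocytes and platelets was 238 to 376 without a tumour and 153 to 1059 with one, with means of 331 and 898 in WT livers without and with a tumour and 280.5 and 353 in KO livers, and its part in the change of Selp was not tested.

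Blood cell markers held few called genes. Of 18 neutrophil markers 17 were in the table, each above 0 in some library, and 11 were tested. Of these 1 rose and 11 were above 0, with a median of 2.78 in WT and 0.14 in KO livers, and their summed level was 158 to 540.4 without a tumour and 329 to 1132 with one. The called gene, Mmp9, a matrix protease, was 3.39, 2.1 and 17 in WT and 11.3, 36.1 and 0 in KO livers without a tumour, and 105, 97.9 and 90.8 in WT and 143, 40.3 and 86.9 in KO livers with one, a rise of 3.68 ± 0.81 (limma adjusted p = 0.0483) whose call ended in 13 of the 23 alternatives. Granulocyte precursor markers had 0 of 3 tested members called, and the summed level of the 10 in the table was 33.9, 27.4 and 34.1 in WT and 38.8, 30.1 and 9.21 in KO livers without a tumour, and 855, 796 and 693 in WT and 39.5, 24.7 and 323 in KO livers with one. All 3 WT tumour livers lay above every tumour-free liver, and the KO tumour livers ran from 24.7 to 323. Megakaryocyte and platelet markers had 0 of 4 called, with a median of 2.23 in WT and −0.49 in KO livers. Only these 4 of the 10 in the table met the filter, 10 normalised reads in 3 libraries, which WT tumour livers alone could meet. Without the filter their additive median was 0.633 in place of 0.999. It was 0.95 in place of 1.79 for granulocyte precursors and 0.899 in place of 0.878 for neutrophils. Of 16 markers of monocytes and macrophages 0 were called and 14 were above 0, with a median of 0.59, at 0.90 in WT and 0.13 in KO livers. Erythroid markers had a median of 1.62 in WT and −0.07 in KO livers and 0 of 10 called. Markers of T and NK cells had 0 of 17 called and a median of −0.16; Cd8a was at 0.97 ± 0.91 (limma adjusted p = 0.644). Cd274, which encodes the checkpoint ligand PD-L1, was at −0.35 ± 0.52 (limma adjusted p = 0.783), and at 0.25 (limma adjusted p = 0.686) without KO_no_tumor replicate 3, where it stood at 2974. Ido2, a tryptophan-degrading enzyme, was at −0.16 ± 0.20 (limma adjusted p = 0.744). The differences between genotypes in these lists were not tested. Markers of hepatocytes, the cells that define the tissue, were abundant in every library, with a summed level of 3496000 to 4253000 without a tumour and 3842000 to 5481000 with one and a median change of 0.06. Of 17 markers of mammary and tumour epithelium, 12 were in the table; they had 0 of 10 called and a summed level of 2782 to 3839 without a tumour and 2704 to 5622 with one. The part of these cell markers in the other results was not tested.

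The largest increases also held genes outside the lists. Shisa3, a membrane protein that restrains growth factor signalling, was 4.52, 22.1 and 36 in WT and 0.95, 11.3 and 0 in KO livers without a tumour, and 269, 359 and 339.8 in WT and 74, 98.2 and 109 in KO livers with one. The tumour libraries did not overlap with the others, which the rule for naming the largest increases required. The rise of 4.64 ± 0.66 (limma adjusted p = 0.00622) was the largest of the named increases and kept its call in all 23 alternatives. Armcx4 was 124, 65.2 and 95.6 in WT and 123, 84.2 and 67.1 in KO livers without a tumour, and 1306, 640.2 and 1799 in WT and 254, 390.2 and 438 in KO livers with one, a rise of 2.80 ± 0.36 (limma adjusted p = 0.00336), and Clca3a1, a chloride channel accessory protein, ran from 65.5 to 259 without a tumour (median 138) and from 311 to 1541 with one (median 934), a rise of 2.62 ± 0.39 (limma adjusted p = 0.00891). Both calls were kept in all 23. The proline synthesis enzyme Aldh18a1 rose by 2.10 ± 0.44 (limma adjusted p = 0.0405) and the mitochondrial folate enzyme Aldh1l2 by 2.28 ± 0.46 (limma adjusted p = 0.0346). Mustn1, a small nuclear protein first found in muscle, rose by 3.46 ± 0.74 (limma adjusted p = 0.0431) and the vesicle protein Cd63 by 1.88 ± 0.39 (limma adjusted p = 0.0381). The calls of these last 4 ended in 10, 8, 10 and 10 of the 23 alternatives.

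The make-up of the libraries moved with the tumour in 1 of 8 measures. Albumin took 10.4% ± 1.36 of the signal with a tumour and 7.55% ± 1.0 without (SD, n = 6; exact permutation test over 924 assignments, two-sided, p = 0.00433, Benjamini-Hochberg adjusted p = 0.0346 over 8 measures). The mitochondrial chromosome took 5.30% ± 1.06 and 6.90% ± 0.93 (exact permutation p = 0.0195, adjusted p = 0.0779). Of 13 genes it encodes, 1 fell, mt-Nd6 of respiratory complex I (−1.09 ± 0.22, limma adjusted p = 0.036), and 13 were below 0, with a median of −0.52. Of 36 nuclear genes of oxidative phosphorylation 1 fell, Uqcrc2 of complex III (−0.62 ± 0.13, limma adjusted p = 0.0415), and the median was 0.01. Of 40 cytosolic ribosomal protein genes 2 rose, Rpl3 (0.84 ± 0.16, limma adjusted p = 0.0283) and Rps6 (0.93 ± 0.19, limma adjusted p = 0.0381), and 36 were above 0 with a median of 0.55, at 0.29 in WT and 0.83 in KO livers. The calls of mt-Nd6, Uqcrc2, Rpl3 and Rps6 ended in 9, 15, 5 and 11 of the 23 alternatives. Ribosomal protein genes have many near-identical pseudogenes, so their reads are uncertain.

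A set of 29 genes kept its call in all 23 alternatives, 16 higher and 13 lower with a tumour, and 26 of them had no overlap between the sets. With 1 prior variance for all genes, the alternative chosen after seeing the data, 11 of the 29 passed. The 16 were Shisa3, Armcx4, Clca3a1, Itih3, Fgl1, Osmr, Tgfbi, Lum, Pdgfrb, Fga, Mug2, Tmem176a, Dcn, Pdgfra, Itih4 and Il4ra. The 13 were Cyp4a10, Acot3, Cyp17a1, Cyp2c69, Mup10, Sult2a8, Lrit1, Acot4, Aldh3a2, Acss3, Slc16a10, Plekha8 and Rapgef4. Those of the 29 not described so far were named after their values were seen. Among them Fgl1, a secreted fibrinogen-like protein of hepatocytes, was 5193, 4954 and 5725 in WT and 4248, 8089.5 and 11482 in KO livers without a tumour, and 24197, 27907 and 24835 in WT and 14134, 12392 and 28076 in KO livers with one, a rise of 1.74 ± 0.27 (limma adjusted p = 0.00998). Tgfbi, a matrix protein induced by TGF-β, was 489.9, 541 and 470.4 in WT and 422, 602 and 693 in KO livers without a tumour, and 1187, 1782 and 1185 in WT and 2493, 1253 and 1986 in KO livers with one, a rise of 1.58 ± 0.19 (limma adjusted p = 0.00271) with 1.44 in WT and 1.71 in KO. Mug2, a murinoglobulin that traps proteases, rose by 1.33 ± 0.19 (limma adjusted p = 0.00691), and Il4ra, a receptor chain for IL-4 and IL-13, by 1.04 ± 0.17 (limma adjusted p = 0.0142). Acss3, a mitochondrial enzyme that activates short fatty acids, changed by −1.34 ± 0.20 (limma adjusted p = 0.00844). Of the 29 genes, 24 were called in WT livers alone and 5 in neither genotype alone.

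**Figure D4:**
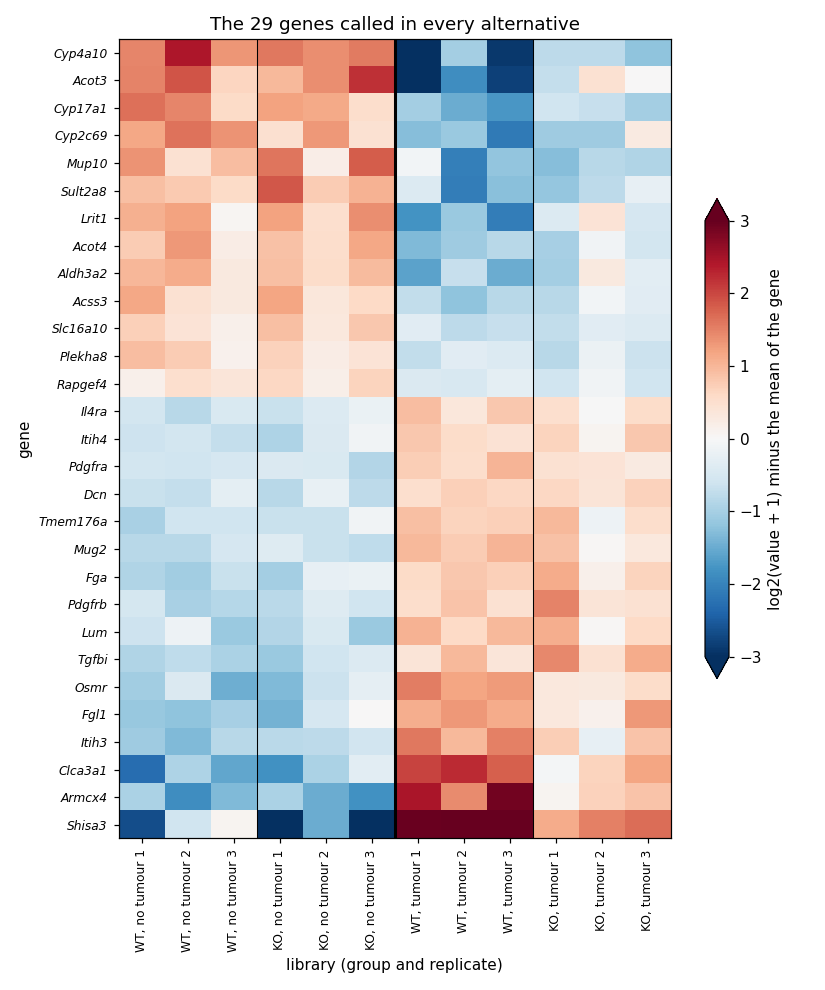
Heat map of the 29 genes called in all 23 alternatives, in 12 libraries with the 6 tumour-free ones left of the thick line, coloured by log2(value + 1) minus the mean of the gene and clipped at −3 and 3. The 13 genes at the top are lower and the 16 at the bottom higher with a tumour, with paler colours in KO than in WT tumour livers for many rows such as Acot3 and Itih3.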

How the data were processed

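Whole-liver RNA of 12 mice, depleted of ribosomal RNA, was sequenced on Illumina libraries, per the labels' protocols. The authors deposited 1 table of normalised signal: reads per gene divided by a size factor per library, as its naming states. STAR 2.7.8a, Partek, DESeq2 and mm39 are named in the submitters' processing notes. The read counter, annotation release and use of strand are not stated there, so genes that overlap, run antisense or are near-identical copies may share reads.

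From the deposited signal, 77.9% to 85.0% of low values were whole multiples of the value of 1 read within 0.01 reads, so no count model was used. Depth was estimated from that step as 12700000 to 43000000 reads; counting precision was not carried into the tests. limma 3.58.1 in R 4.3.3 (lmFit, eBayes with a mean-variance trend) was fitted to log2(value + 1) of 17380 genes with tumour and genotype as terms, two-sided, with Benjamini-Hochberg adjustment over all tested genes. The interaction came from a fit with a mean per group, and each genotype was also fitted alone. Each gene's variance combined its own spread between mice with a trend over genes of like level, which at the highest levels exceeded that spread. The number in the sample titles was not used to pair libraries: of 18 pairs with the same number, 0 had deviations that correlated above 0.1.

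On simulated data for the additive fit of 17380 genes, sets of 50 genes were changed by a log2 of 1, 2, 3 and 4. The test recovered 17, 24, 36 and 39 of them (34%, 48%, 72% and 78%). Beside these, 10 of 17180 unchanged genes were called. The noise was normal and independent between genes and libraries, with each gene's residual SD. Libraries that stood apart were thus not represented, and error in the real count was not measured.

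Named genes were the 10 largest increases and decreases among called genes whose mean was 50 or more and whose groups did not overlap, without unnamed gene models; up to 4 called members of each list by smallest p; 22 fixed genes; the 10 genes of smallest p called in neither genotype alone; and the 4 called genes of smallest interaction p. One gene that this rule selects is not reported here. The genes, 48 lists and tests were chosen with earlier results of these data known. Of 1025 symbols on the lists, 989 were in the table. Lists are described by counts and medians and not tested. Alternatives were a pseudocount of 10, no filter, rescaling to the same total, quantile normalisation, robust eBayes, library weights, no genotype term, a mean per group, the replicate number as a block, protein-coding genes alone, and libraries left out; 1 prior variance for all genes was added after seeing the data. Promoter windows were searched with Python 3.11.15 and pandas 2.3.3, and figures drawn with matplotlib 3.10.9.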

Additional observations from a re-analysis of the deposited data

Results flagged for a closer look

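In groups of 6, a library was marked when the gap between the highest or lowest value and its neighbour exceeded Dixon's 95% critical share of the range. For genes the gap and the range were taken on log2(value + 1), and for shares of signal on the percentages. Gene values are printed below on the unlogged scale. Chance marks about 1 in 20 groups, and 94 values were examined. Among the livers without a tumour, WT_no_tumor replicate 2 was apart for 3 metabolic genes: Cyp4a10 at 19100 (others 8920 to 10600), Cyp4a14 at 38200 (others 17300 to 22700) and Fasn, the fatty acid synthase, at 17900 (others 79400 to 156000). KO_no_tumor replicate 1 was apart for Mustn1 at 0 (others 15.8 to 53.0), the folate enzyme gene Aldh1l2 at 11.3 (others 34.1 to 60.2) and Sult2a8 at 28300 (others 11500 to 16000). The T cell gene Cd8a was at 0 in WT_no_tumor replicate 1 (others 26.5 to 48.7). In KO_no_tumor replicate 3 the checkpoint ligand gene Cd274 was at 2970 (others 201 to 348), protein-coding genes took 83.7% of the signal (others 92.2% to 95.2%), small nuclear RNAs 5.32% (others 0.564% to 1.63%) and small nucleolar RNAs 4.84% (others 0.562% to 1.0%). Outside this rule, the same liver had a summed level of 213300 over 30 interferon-stimulated genes, against 21650 to 33900 in all other livers. Its antigen presentation genes summed to 98170, against 30330 to 77390. Of the 30 interferon-stimulated genes 0 were called in the additive fit. Their part in the results was not tested, beyond the fits that leave these libraries out.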

How the results depend on the processing

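None of the 137 genes reversed direction in any of the 23 alternatives chosen with the tests, and 29 kept their call in all 23. The alternatives reuse the livers that chose these genes, so a kept direction is not separate support. Counts moved more. With library weights 166 genes were higher and 108 lower, and with protein-coding genes alone 89 were lower. Leaving out 1 library in turn gave 17 to 139 higher and 14 to 117 lower genes, and 5 to 32 lists with a called member. The same fits gave 37 to 204 genes in WT alone, 0 to 5 in KO alone and 0 to 1 for the interaction. The share of WT genes with the same direction in KO livers was 83.33% to 97.3%. In WT alone 205 genes passed with a pseudocount of 10, 0 without the filter, 211 with robust eBayes and 363 with library weights. In KO alone 0 passed without the filter, 4 with library weights and 0 without KO_tumor replicate 1 and KO_no_tumor replicate 3. The interaction gave 1 gene with library weights. With 1 prior variance for all genes, chosen after seeing the data, 10 genes were higher and 7 lower, 3 lists had a called member, and 20 genes passed in WT alone, 0 in KO alone and 1 for the interaction; 11 of the 29 passed in this fit. The cause of these moves was not tested. With the replicate number as a block, which could not be shown to pair the libraries (6 of 12 correlated best with their own number), 55 genes were higher and 46 lower. The lipoprotein list had a median of 0.09 that turned to −0.03 without KO_tumor replicate 1, and the drug metabolism median of −0.09 turned to 0.05 with quantile normalisation. KO_tumor replicate 1 had the fewest estimated reads, 12700000; whether depth limited calls of low genes was not tested.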

Other observations

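Immediate early genes, the transcription factors and regulators that answer stimuli within minutes, lay above 0 in 18 of 19 tested members, with a median of 0.73, at 0.76 in WT and 0.61 in KO livers. None of the 19 passed by limma over all genes, and 5 had an unadjusted p under 0.05. Cell cycle genes had a median of 0.54 in WT and −0.57 in KO livers, with 0 of 29 called.

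Of the 136 genes called in WT livers alone, 17 had the opposite sign in KO livers, none with an unadjusted p under 0.05 there. Beside Saa1 they included the matrix genes Col3a1 (1.502 in WT and −0.23 in KO; unadjusted interaction p from limma = 0.000198) and Cpxm1 (6.21 in WT and −0.44 in KO; 0.000311), the ER chaperone complex gene Sdf2l1 (2.12 in WT and −0.55 in KO; 0.000236) and the monocyte receptor gene Ccr2 (1.78 in WT and −0.09 in KO; 0.0032). These genes were named after their values were seen. No interaction passed the adjusted threshold over all libraries with the variance trend and equal library weights, and 1 gene passed without WT_tumor replicate 2.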
